A study of Mus musculus with 29 samples.

Results

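Brain metastases of mice that had received trametinib alone were compared with brain metastases of untreated mice by sequencing T cell receptor transcripts. The samples were chosen by their titles and treatment labels, which gave 4 trametinib samples and 3 untreated samples, 7 of the 29 samples of the series and of its 19 brain samples. The trametinib samples are labelled day 3 and the untreated samples day 0, so drug and day cannot be told apart. All 7 come from a metastasis model of Braf-mutated melanoma, and the labels used here give no mouse strain, cell line, age or dose. The untreated samples carry the word vehicle in their titles, while their treatment label says that nothing was given. The series title concerns an anti-PD-L1 lead-in before MAPK inhibitor therapy, and neither of these 2 groups received the antibody.

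Each title gives a number and, in 6 of the 7 samples, a part. The trametinib samples were parts 1 and 2 of number 8 and parts 1 and 2 of number 13, and the untreated samples were parts 1 and 2 of number 3 and the undivided number 7. Neither the meaning of the number nor that of the part is given in the labels. Parts of a number shared clonotypes, so they were averaged and each group counted as 2 numbers. The p-values therefore measure the spread between numbers, and an exact two-sided permutation test of 2 numbers against 2 cannot give a p below 0.333. The files hold receptor transcripts only, so no marker of brain, tumor or T cell identity could be checked.

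A T cell recognises its target through a receptor made of an alpha chain (TRA) and a beta chain (TRB). Each chain is assembled from a V and a J segment, with a D segment in beta, and the junction encodes the CDR3, the loop that varies most and largely sets what the receptor binds. Cells that descend from the same T cell carry the same CDR3, so an expanded clone shows as a clonotype with many transcripts. Trametinib inhibits MEK, a kinase of the MAPK pathway that drives Braf-mutated melanoma and that T cells also use downstream of their receptor. Invariant natural killer T cells see lipids presented by CD1d. They share a nearly fixed alpha chain of TRAV11 joined to TRAJ18 and pair it with few beta V segments. Mucosal-associated invariant T cells see microbial metabolites presented by MR1 and use TRAV1 joined to TRAJ33.

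A clonotype was defined here by its V segment, its J segment and the amino acids of its CDR3. The CDR3 sequences that carry the results are given first, from the amino-terminal cysteine to the last residue of the loop, as the deposited table has them. A pair of alpha chains shows the loop end that TRAJ18 encodes, joined to V segments other than TRAV11:
number 3, TRAV7D-2 TRAJ18: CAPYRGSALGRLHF
number 13, TRAV14-2+V14N-2 TRAJ18: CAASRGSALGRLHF

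These beta chains were among the 3 largest of each number by share of counts:
number 8, TRBV5 TRBJ1-1: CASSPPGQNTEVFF
number 13, TRBV12-1 TRBJ1-5: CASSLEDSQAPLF
number 13, TRBV14 TRBJ2-4: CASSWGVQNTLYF
number 3, TRBV16 TRBJ2-7: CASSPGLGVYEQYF
number 3, TRBV16 TRBJ2-7, second: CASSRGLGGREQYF
number 3, TRBV29 TRBJ1-2: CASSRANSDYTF
number 7, TRBV29 TRBJ2-1: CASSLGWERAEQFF
number 7, TRBV2 TRBJ2-3: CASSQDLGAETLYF
number 7, TRBV12-2 TRBJ2-3: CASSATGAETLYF

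The clonotypes found in more than 1 number include 5 beta chains and, beside the invariant chain, 3 alpha chains that lead by summed share:
beta, TRBV3 TRBJ2-7: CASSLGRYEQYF
beta, TRBV16 TRBJ2-4: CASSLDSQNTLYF
beta, TRBV16 TRBJ2-7: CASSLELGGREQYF
beta, TRBV20 TRBJ2-7: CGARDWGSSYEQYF
beta, TRBV3 TRBJ1-3: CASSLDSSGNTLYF
alpha, TRAV7D-2 TRAJ23: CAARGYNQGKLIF
alpha, TRAV8-1+V8D-1 TRAJ24: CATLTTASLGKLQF
alpha, TRAV7D-2 TRAJ15: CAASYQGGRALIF

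The 7 samples held 7285 counts, beside 1 count that was left out because its CDR3 was not fully resolved. These counts fell into 1290 TRB and 1167 TRA clonotypes. Intervals of single samples are exact Clopper-Pearson 95% intervals. They and the limits for a count of 0 (3 counts of the total) cover counting error only, since copies of 1 molecule need not be independent. No pair of columns was identical, and the parts of a number differed by more than sampling noise (chi-square per degree of freedom 6.01 to 10.5 over clonotypes of 10 or more counts), so each column was taken as a library of its own.

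The yield of receptor transcripts overlapped between the groups. TRB counts were 527 and 354 in the parts of number 8, 689 and 635 in those of number 13, 302 and 320 in those of untreated number 3, and 605 in untreated number 7. The untreated group thus spanned nearly the whole range, with number 7 close to the trametinib number 13 and number 3 the lowest. On the log2 scale the trametinib numbers averaged 9.06 ± 0.43 (SD, n = 2) and the untreated numbers 8.76 ± 0.68 (SD, n = 2), a difference of 0.30 (exact permutation p = 0.667, two-sided; adjusted p = 1 over 6 tests). The direction turned without number 3 (-0.18) and without number 13 (-0.0058), while the difference was 0.78 without number 7 and 0.61 without number 8. TRA counts overlapped as well, with 611 and 344 in number 8, 863 and 667 in number 13, 363 and 370 in number 3 and 635 in number 7. Part 2 of number 8 had the fewest TRA counts, below both parts of number 3. The log2 ratio of TRA to TRB counts was 0.14 ± 0.08 with trametinib and 0.15 ± 0.12 without (SD, n = 2 numbers each, exact permutation p = 1, adjusted p = 1). Input RNA amounts are not known, and in bulk tissue fewer T cells and less receptor RNA per cell cannot be told apart.

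Clonal diversity was also alike in range. The number of TRB clonotypes expected in 302 counts, the lowest total, was 157 and 130 in number 8, 162 and 180 in number 13, 131 and 140 in number 3 and 175 in number 7. In both groups 1 number was richer than the other by more than the groups differed. The log2 means were 7.29 ± 0.18 and 7.27 ± 0.26 (SD, n = 2 numbers each, exact permutation p = 1, adjusted p = 1). The difference of 0.019 was 0.21 without number 7, 0.15 without number 8, -0.17 without number 3 and -0.11 without number 13. The Simpson concentration, or how often counts drawn in pairs come from 1 clonotype, was 0.806% and 0.866% in number 8, 0.588% and 0.524% in number 13, 0.884% and 0.756% in number 3 and 0.454% in number 7. Its means were 0.696% ± 0.198 with trametinib and 0.637% ± 0.259 without (SD, n = 2 numbers each, exact permutation p = 0.667, adjusted p = 1). The difference was -0.12 percentage points without number 7 and -0.081 without number 8, and 0.24 without number 3 and 0.20 without number 13.

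**Figure D1:**
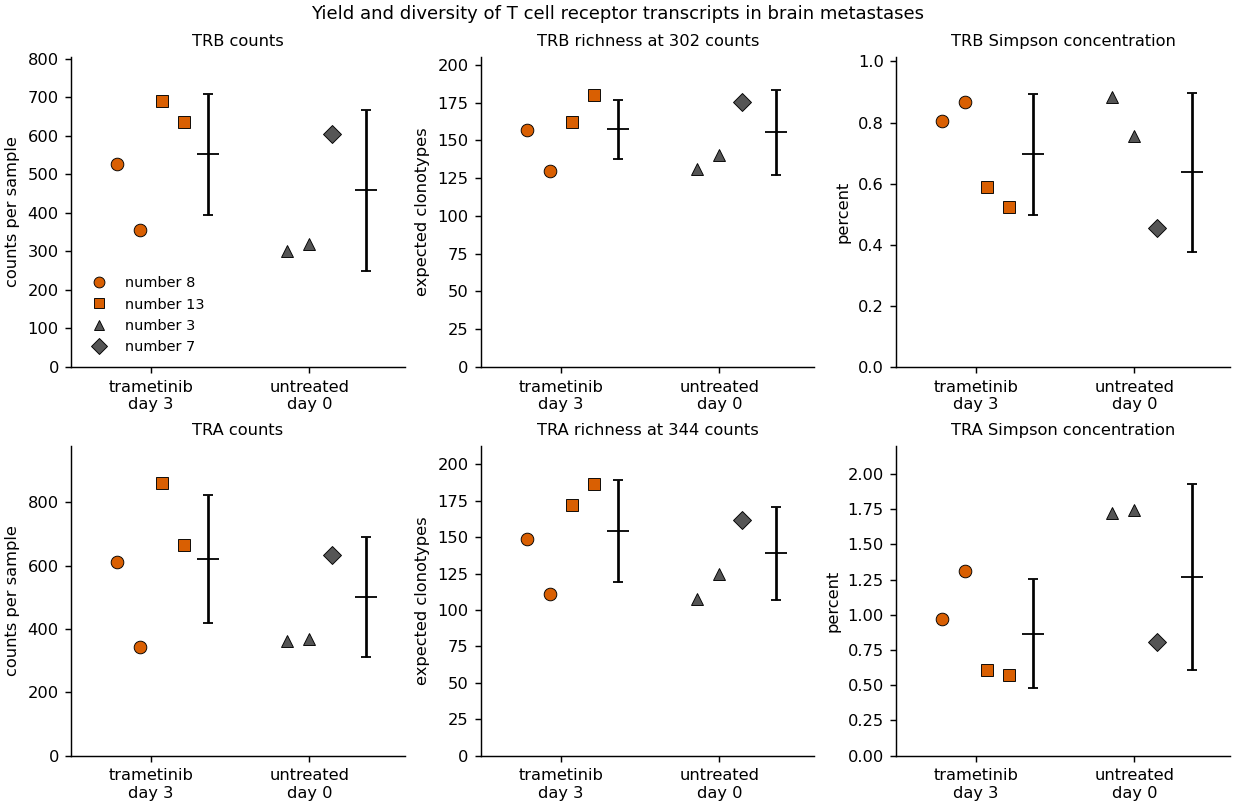
Counts per sample, expected clonotypes at equal depth and Simpson concentration in percent, for beta chains (top) and alpha chains (bottom). Each point is a sample, orange for trametinib and grey for untreated, with a marker shape per number, and the black bar is the mean of the 2 numbers with its SD. In TRB counts the untreated number 7 (605) lies among the trametinib samples (354 to 689), and both untreated parts of number 3 (302 and 320) lie below them.

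In alpha chains the concentration also overlapped, with means of 0.864% ± 0.387 with trametinib and 1.27% ± 0.659 without (SD, n = 2 numbers each, exact permutation p = 0.667, adjusted p = 1). The difference of -0.406 percentage points had the opposite sign to that of beta chains. TRA concentration was 0.966% and 1.31% in number 8, 0.609% and 0.571% in number 13, 1.72% and 1.75% in number 3 and 0.804% in number 7. The 2 parts of number 3 were the most concentrated, and number 7 lay between the trametinib numbers. The 10 largest TRA clonotypes held 33.6% and 33.8% of counts in number 3 and 20.2% in number 7, against 23.1% and 27.9% in number 8 and 16.2% and 16.3% in number 13. For TRB the 10 largest held 22.8% and 20.3% in number 3 and 12.9% in number 7, against 22.0% and 20.6% in number 8 and 15.5% and 16.7% in number 13. Clonotypes seen as a single count were 38.7% to 48.2% of TRB clonotypes with trametinib and 38.9% to 44.4% without.

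**Figure D2:**
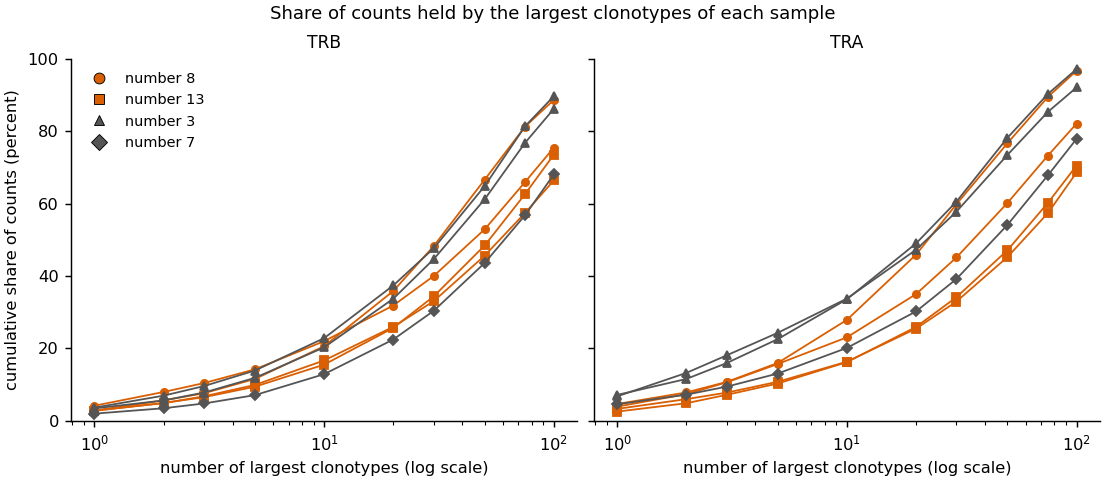
Cumulative share of counts, in percent, held by the largest clonotypes of each sample, against their number on a log scale, for beta (left) and alpha chains (right). Orange lines are trametinib and grey lines untreated samples. The 10 largest alpha clonotypes of untreated number 3 hold 33.6% and 33.8% of counts, above the 16.2% to 27.9% of the trametinib samples, while untreated number 7 (20.2%) lies among them.

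Each of the 3 largest beta clonotypes of a number was found in no other of the 4 numbers, and most were uneven between its parts. In number 8 the leading clonotype, with TRBV17, TRBJ2-2 and a CDR3 of 16 residues, had 22 counts in part 1 (4.17% of TRB, 95% interval 2.63 to 6.25) and 6 in part 2. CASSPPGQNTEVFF had 20 counts in part 1 and 0 in part 2, and a clonotype of TRBV16 and TRBJ2-5 had 3 and 10. In number 13, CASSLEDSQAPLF had 15 and 13 counts, a clonotype of TRBV5 and TRBJ1-4 19 and 9, and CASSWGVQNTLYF 0 and 18. In untreated number 3, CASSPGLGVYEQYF had 1 and 11 counts, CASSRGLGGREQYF 11 and 0, and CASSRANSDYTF 10 and 0. In untreated number 7 the leading clonotypes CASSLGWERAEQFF, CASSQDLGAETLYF and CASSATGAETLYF had 12, 9 and 8 counts. No clonotype of this set passed 5% of the TRB counts of a sample. The largest alpha clonotypes of number 7 were TRAV7D-2 with TRAJ22 (29 counts, 4.57% of TRA) and TRAV7N-6 with TRAJ39 (17 counts, 2.68%). Neither was found in another brain number or in an ovary of the series. The largest alpha clonotypes of the other numbers are given below.

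The invariant natural killer T alpha chain was found in every sample. TRAV11, TRAV11D or TRAV11N joined to TRAJ18 had 27 and 11 counts in number 8, 23 and 24 in number 13, 32 and 35 in untreated number 3 and 7 in untreated number 7. As shares of TRA counts these were 4.42% (95% interval 2.93 to 6.36) and 3.20% (1.61 to 5.65) in number 8 and 2.67% (1.70 to 3.97) and 3.60% (2.32 to 5.31) in number 13. The untreated samples lay at both ends, with 8.82% (6.11 to 12.2) and 9.46% (6.68 to 12.9) in number 3 and 1.1% (0.444 to 2.26) in number 7. The group means were 3.47% ± 0.48 with trametinib and 5.12% ± 5.68 without (SD, n = 2 numbers each), a difference of -1.65 percentage points (exact permutation p = 1, adjusted p = 1). Without number 7 the difference was -5.67 points and without number 3 it was 2.37, so its direction depended on which untreated number was kept.

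The chain itself was nearly always the same loop of 15 residues. With TRAV11N it had 20 and 11 counts in number 8, 22 and 18 in number 13, 16 and 25 in number 3 and 6 in number 7, and the series held it in 10 of 10 brain numbers and 5 of 5 ovary numbers. The same loop under the joined name TRAV11+V11D had 1 and 0 counts in number 8, 1 and 6 in number 13, 16 and 4 in number 3 and 1 in number 7. TRAV11+V11D+V11N, a name that joins all 3 copies, had the other 3 counts of this loop in part 2 of number 3. A variant loop of the same length had 6 counts in part 1 of number 8 and 0 in part 2.

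TRAJ18 joined to other V segments did not overlap between the groups. Its share was 2.62% (95% interval 1.5 to 4.22) and 0.872% (0.180 to 2.53) in number 8, 1.39% (0.721 to 2.42) and 2.40% (1.38 to 3.87) in number 13, 9.37% (6.57 to 12.8) and 5.68% (3.55 to 8.55) in number 3 and 2.99% (1.81 to 4.63) in number 7. All 3 untreated samples thus lay above all 4 trametinib samples, number 7 by less than its interval. Most of these counts in number 3 were 1 clonotype, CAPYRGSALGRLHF, with 26 of 34 and 18 of 21 counts in its brain parts. It had 9477 counts in the ovary samples of the same number. In number 7 a clonotype with TRAV7-1 held 14 of 19 counts. The separation thus rested on 1 clonotype in each untreated number. In number 13 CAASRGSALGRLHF had 5 and 4 counts. All TRAJ18 chains together took 7.04% and 4.07% of TRA counts in number 8, 4.06% and 6.0% in number 13, 18.2% and 15.1% in number 3 and 4.09% in number 7, which overlapped. In the edgeR fit described below, TRAJ18 differed by -0.94 log2 units (SE 0.54, edgeR adjusted p = 0.741).

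**Figure D3:**
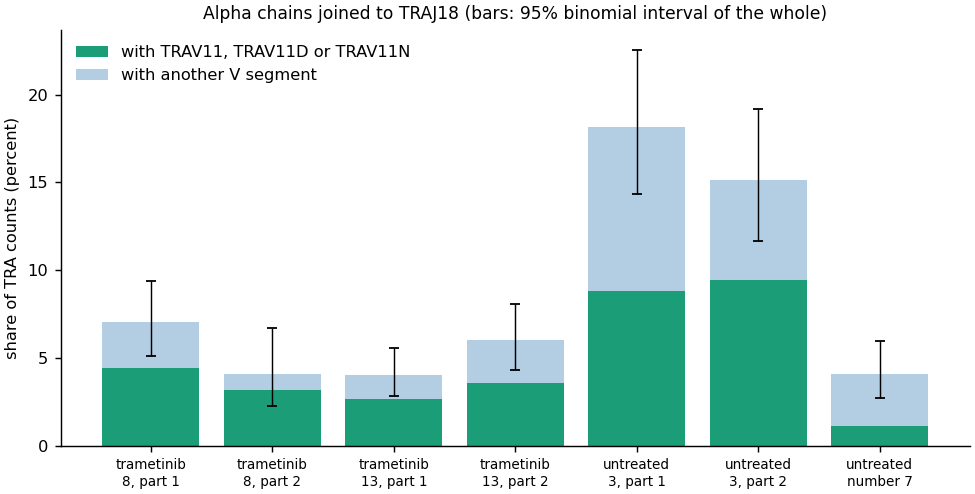
Share of TRA counts joined to TRAJ18 in each sample, in percent, divided into chains with TRAV11, TRAV11D or TRAV11N (green) and with other V segments (blue). Error bars are exact 95% binomial intervals of the whole. Both parts of untreated number 3 (18.2% and 15.1%) stand above the other samples (4.06% to 7.04%), and untreated number 7 (4.09%) lies among the trametinib samples.

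No mucosal-associated invariant T alpha chain was detected. TRAV1 joined to TRAJ33 had 0 counts in all 7 samples, which allows shares of up to 0.348% of TRA in the deepest sample and 0.872% in the shallowest. TRAV1 itself appeared with 2 counts in part 2 of number 8 and 3 in part 2 of number 13, with other J segments. TRAJ33 was present throughout, with 4.26% and 8.14% in number 8, 1.27% and 2.10% in number 13, 6.06% and 4.32% in number 3 and 6.46% in number 7.

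Use of V segments was compared with edgeR's quasi-likelihood test, with the parts of each number added together, in 1 fit with the other brain numbers of the series. None of 99 V segments passed an adjusted p of 0.05 (0% called), and 5 had an unadjusted p below 0.05 (5.05%). DESeq2 also called 0, with 6 unadjusted. Of the 99, 47 had higher and 51 lower values with trametinib, with a median log2 difference of -0.06. The samples did not overlap for 3 segments that were higher (3.03%) and 2 that were lower with trametinib (2.02%).

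TRBV17 had the lowest p among V segments and was the 1 of 21 beta V segments whose samples did not overlap (4.76%). Its share of TRB counts was 9.30% (95% interval 6.96 to 12.1) and 8.19% (5.55 to 11.6) in number 8, and 4.64% (3.20 to 6.49) and 4.09% (2.69 to 5.94) in number 13. The untreated shares were 2.65% (1.15 to 5.15) and 2.50% (1.09 to 4.87) in number 3 and 2.31% (1.27 to 3.85) in number 7. Every trametinib sample thus lay above every untreated one, with number 8 highest and the intervals of number 13 overlapping those of the untreated samples. The means were 6.56% ± 3.09 and 2.44% ± 0.18 (SD, n = 2 numbers each), a log2 difference of 1.43 (SE 0.56, edgeR adjusted p = 0.627). The segment was spread over 8, 8, 11 and 12 clonotypes in the trametinib samples and 3, 2 and 8 in the untreated ones. With the largest TRBV17 clonotype of each sample removed, the shares were 5.35%, 6.61%, 3.67% and 3.49% against 1.34%, 1.27% and 1.5%, and did not overlap either. TRBV17 was picked by its values in these same counts, so these shares are no support for it. In the brain numbers of the other treatments it held 2.72% to 4.50%, a range that holds number 13 (4.37%). Number 8 lay above that range, and numbers 3 and 7 lay below it. Without number 8 the log2 difference was 0.84, and with each clonotype counted once it was 0.81. Its leading clonotype in number 8 was found in no other brain number and in no ovary of the series.

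The most used beta V segments were largely the same in both groups. TRBV19 held 12.1% and 12.1% in number 8, 13.9% and 13.9% in number 13, 13.6% and 9.38% in number 3 and 10.1% in number 7. TRBV16 held 7.78% and 19.2% in number 8, 10.4% and 7.09% in number 13, 12.3% and 10.9% in number 3 and 8.10% in number 7, so its parts differed more than its groups. TRBV13-2 ranged from 4.74% to 11.8% with trametinib and from 7.28% to 12.2% without. TRBV1 ranged from 5.88% to 10.9% with trametinib and from 9.69% to 10.6% without, a log2 difference of -0.44 (SE 0.42, edgeR adjusted p = 0.897).

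**Figure D4:**
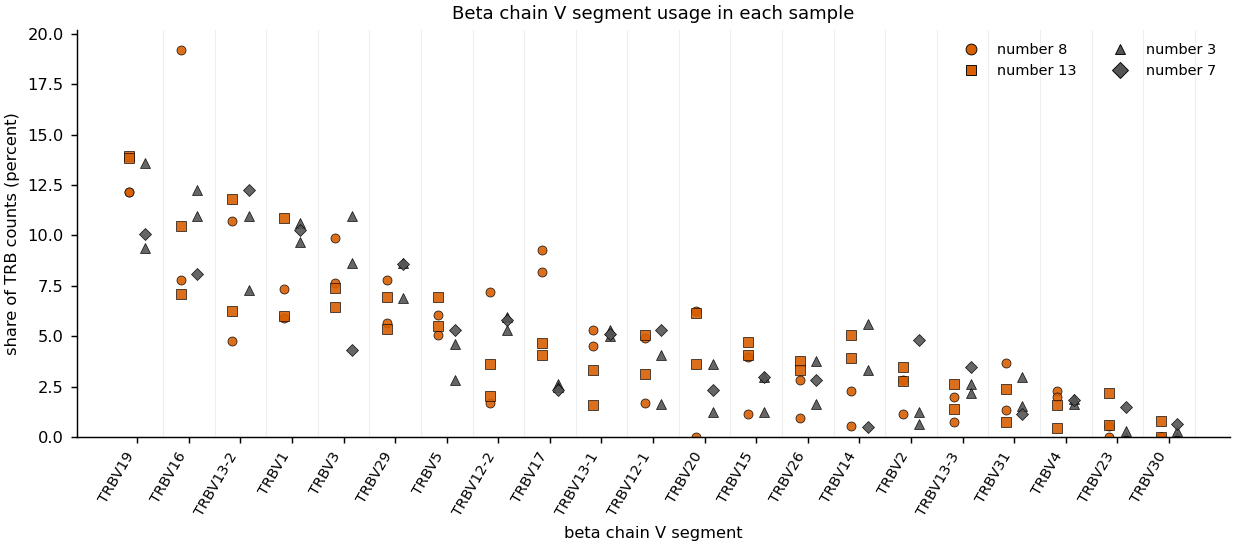
Share of TRB counts, in percent, of each beta V segment tested, in order of mean share, with trametinib samples in orange (left of each column) and untreated samples in grey (right), and a marker shape per number. TRBV17 is the 1 segment whose groups do not overlap (4.09% to 9.30% against 2.31% to 2.65%), and the parts of number 8 are 7.78% and 19.2% apart for TRBV16.

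The beta V segments that pair with the invariant natural killer T alpha chain were lower with trametinib as a sum. TRBV13-1, TRBV13-2, TRBV13-3, TRBV29 and TRBV1, which ordinary T cells use as well, together held 24.5% and 30.2% in number 8, 28.3% and 27.9% in number 13, 34.4% and 34.7% in number 3 and 39.7% in number 7. The highest trametinib sample lay below the lowest untreated one. All 5 segments had lower fitted values with trametinib, with a median log2 difference of -0.44 beside -0.06 over all V segments, and none passed (lowest edgeR adjusted p = 0.897). Taken alone, each of these segments overlapped between the groups. Number 7 had the highest summed share of these segments and the lowest share of the invariant alpha chain, and a relation between these shares was not tested. The segments that pair with the mucosal-associated invariant chain, TRBV19 and the TRBV13 group, held 23.0% to 30.4% with trametinib and 27.5% to 30.9% without, with 1 of 4 higher.

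Among alpha V segments, 78 were tested and the samples of 4 did not overlap (5.13%). TRAV21/DV12, which lies in the part of the locus shared with delta chains, held 5.07% (95% interval 3.47 to 7.12) and 1.16% (0.318 to 2.95) in number 8 and 2.09% (1.24 to 3.28) and 1.05% (0.423 to 2.15) in number 13. It had 0 counts in both parts of number 3 and 0.630% (0.172 to 1.6) in number 7. The log2 difference was 3.11 (SE 1.27, edgeR adjusted p = 0.627). Of its 31 counts in part 1 of number 8, 21 belonged to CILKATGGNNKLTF with TRAJ56, which had 3 counts in part 2 and was seen in no other number.

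TRAV7-4+V7D-4, a name joined because the sequence fits either copy, held 3.93% and 0.581% in number 8, 2.20% and 2.25% in number 13, 0.275% and 1.08% in number 3 and 0.472% in number 7. Part 2 of number 8 lay within the untreated range, and the log2 difference was 2.08 (SE 0.85, edgeR adjusted p = 0.627). TRAV12-3 was rarer, at 1.15% and 0.291% in number 8, 0.927% and 0.450% in number 13, 0.270% in part 2 of number 3 and 0 counts in the other untreated samples (log2 difference 3.39, SE 1.74, edgeR adjusted p = 0.897). The shares of 0.291% and 0.270% were 1 count each, of 344 and 370, so these samples stood apart only by depth. The 7 and 1 counts of TRAV12-3 in number 8 were 1 clonotype with TRAJ30. TRAV19 ran the other way, at 0.164% and 0 counts in number 8, 0.116% and 0.150% in number 13, 0.551% and 1.35% in number 3 and 1.57% in number 7. It rested on 3 counts with trametinib and 17 without (log2 difference -3.37, SE 1.51, edgeR adjusted p = 0.751). TRAV8D-2 had 0 counts in the 4 trametinib samples and 0, 1 and 4 in the untreated ones (edgeR adjusted p = 0.627). Its pooled untreated share was 3.03-fold a floor of 3 counts over the pooled trametinib samples. That ratio leaves out the counting error of the few untreated counts, so it is no lower bound.

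The most used alpha V segments overlapped. TRAV7D-2 led with 17.0% and 13.7% in number 8, 7.07% and 11.1% in number 13, 17.4% and 15.9% in number 3 and 12.9% in number 7. TRAV8-1+V8D-1 held 4.95% to 8.0% with trametinib and 2.48% to 5.68% without, and TRAV10 held 2.20% to 9.30% and 0.811% to 5.51%. TRAV6D-5+V6N-5 held 3.49% to 7.35% and 3.62% to 6.34%. Alpha V segments shared with the delta locus together held 9.33% and 4.94% in number 8, 11% and 5.10% in number 13, 2.48% and 5.14% in number 3 and 5.20% in number 7. Of the 5 tested, 3 had higher and 2 lower values with trametinib, none past the threshold.

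None of 53 J segments passed (0% called), and 2 had an unadjusted edgeR p below 0.05 (3.77%), while DESeq2 called 0 with 5 unadjusted. The median log2 difference over all J segments was 0.13, and 28 were higher and 25 lower. Samples did not overlap for 2 that were higher with trametinib (3.77%) and 1 that was lower (1.89%), which are 3 of the 41 alpha J segments (7.32%). TRAJ26 was the lower one, with 4.42% (95% interval 2.93 to 6.36) and 0.581% (0.0705 to 2.08) in number 8 and 3.36% (2.26 to 4.79) and 4.65% (3.18 to 6.53) in number 13. Its untreated shares were 7.16% (4.73 to 10.3) and 5.41% (3.33 to 8.22) in number 3 and 7.40% (5.49 to 9.72) in number 7. The log2 difference was -0.97 (SE 0.48, edgeR adjusted p = 0.741).

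TRAJ24 held 0.818% and 1.16% in number 8, 2.67% and 3.45% in number 13, 0.787% in number 7 and 0 counts in both parts of number 3 (log2 difference 2.40, SE 1.36, edgeR adjusted p = 0.741). In number 13, 42 of its 46 counts were the clonotype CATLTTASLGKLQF, which also made up all 5 counts of number 7. Part 1 of number 8 had 5 TRAJ24 counts too, of 611 beside 635 in number 7, so 0.818% and 0.787% differed only by depth. TRAJ38 held 0.982% and 1.74% in number 8, 2.43% and 3.30% in number 13, 0.826% and 0.811% in number 3 and 0 counts in number 7 (log2 difference 2.27, SE 1.28, edgeR adjusted p = 0.741). TRAJ40 and TRAJ37 had the lowest p but overlapped. TRAJ40 differed by 1.69 (SE 0.72, edgeR adjusted p = 0.741), with 1.16% to 3.60% with trametinib and 0% to 1.38% without. TRAJ37 differed by 1.18 (SE 0.54, edgeR adjusted p = 0.741), with 2.55% to 10.2% and 0.551% to 4.05%. TRAJ23 held 6.40% to 10.3% and 1.38% to 12.4%, and TRAJ22 4.65% to 9.15% and 1.62% to 10.2%.

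Beta J segments showed no separated member among 12 tested (0%). The TRBJ2 cluster, which lies downstream of TRBJ1 and has its own D and constant gene, held 70.2% and 75.7% of TRB counts in number 8, 62.4% and 65.2% in number 13, 61.6% and 64.7% in number 3 and 67.8% in number 7. Within it TRBJ2-7 was the most used, with 17.1% to 25.4% with trametinib, 22.2% and 27.2% in number 3 and 121 of 605 counts in number 7. TRBJ2-4 held 8.82% to 14.4% and 8.61% to 12.4%, and TRBJ2-3 held 6.83% to 13.3% and 7.81% to 13.6%. Of the TRBJ1 cluster 1 of 6 members was higher with trametinib and of the TRBJ2 cluster 3 of 6, with median log2 differences of -0.32 and -0.0041 beside 0.13 over all J segments.

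Of 423 V-J pairs none passed (0% called), and 17 had an unadjusted edgeR p below 0.05 (4.02%), while DESeq2 called 0 with 24 unadjusted. Samples did not overlap for 9 pairs that were higher with trametinib (2.13%) and 3 that were lower (0.709%). The filter ran over all 10 brain libraries, and 333 of the 423 pairs had a count in the 4 libraries compared. The rest could not stand apart, which lowers these percentages. The 4 pairs of lowest p had 0 counts in all 3 untreated samples. TRBV13-2 with TRBJ2-3 had 1 and 8 counts in number 8 and 5 and 22 in number 13 (edgeR adjusted p = 0.860). The pooled trametinib share of this pair was 6.68-fold a floor of 3 counts over the pooled untreated samples, leaving out the counting error of the trametinib counts. Its counts fell into 1, 3, 1 and 4 clonotypes. TRBV5 with TRBJ1-1 had 20 and 0 counts in number 8 and 0 and 4 in number 13 (edgeR adjusted p = 0.860), and the 20 were the clonotype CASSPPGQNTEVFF. TRAV4N-4 with TRAJ22 had 2 and 3 counts in number 8 and 17 and 3 in number 13 (edgeR adjusted p = 0.860). TRAV7D-2 with TRAJ34 had 22 and 5 counts in number 8 and 0 in number 13 (edgeR adjusted p = 0.860), 19 of them a single clonotype.

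Pairs of common segments also stood apart, chosen here after their values were seen. TRBV19 with TRBJ2-7 held 3.23% and 5.37% in number 8, 5.08% and 4.09% in number 13, 2.32% and 0.625% in number 3 and 1.32% in number 7 (edgeR adjusted p = 0.860). TRBV3 with TRBJ2-7 held 5.31% and 3.39% in number 8, 2.90% and 2.68% in number 13, 0 counts and 0.312% in number 3 and 0.992% in number 7 (edgeR adjusted p = 0.860). TRBV13-2 with TRBJ2-7 ran the other way, at 0.190% and 2.26% in number 8, 0.290% and 1.73% in number 13, 2.32% and 5.0% in number 3 and 2.98% in number 7 (edgeR adjusted p = 0.860). The pairs of TRBV13-2 with TRBJ2-3 and with TRBJ2-7 thus ran in opposite directions, while the total share of TRBV13-2 overlapped between the groups.

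Clonotypes were shared mainly between parts of a number. The parts of number 13 had 36 TRB clonotypes in common, those of number 8 had 20 and those of number 3 had 11. The Morisita-Horn index, which weighs shared clonotypes by abundance and is 0% for repertoires with nothing in common, was 25.5%, 15.6% and 7.63% for these pairs. Pairs of single samples from different numbers of a group had 0 to 2 TRB clonotypes in common (index 0% to 0.306%). Pairs of a trametinib and an untreated sample had 0 to 3 (0% to 1.17%). The 2 parts still missed much of each other. Of TRB clonotypes with 5 or more counts in a part, 2 of 23 and 6 of 24 were found in the other part of number 8, 14 of 45 and 8 of 25 in number 13, and 0 of 14 and 2 of 13 in number 3. In alpha chains, parts of a number had 10 to 32 clonotypes in common, and pairs of a trametinib and an untreated sample had 1 to 5. Their alpha index overlapped, at 25.3% to 38.5% for parts and 2.36% to 30.4% for trametinib and untreated pairs. Part 1 of number 8 and part 2 of number 3 gave the 30.4%, above the 25.3% between the parts of number 8.

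Nearly all clonotypes were private. Of 1290 TRB clonotypes, 1276 (98.9%) occurred in 1 of the 4 numbers, 13 in 2 and 1 in 3. Both trametinib numbers shared 4, both untreated numbers shared 1, and 10 were found in both groups. Of 1167 TRA clonotypes, 1155 occurred in 1 number, 9 in 2, 1 in 3 and 2 in 4, the last 2 being the invariant loop as TRAV11N and as TRAV11+V11D. Both trametinib numbers shared 5, both untreated numbers 3, and 9 were found in both groups. Trametinib samples hold more counts, so these numbers of shared clonotypes are not on an equal depth.

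The public beta chains were small. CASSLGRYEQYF had 11 and 7 counts in number 13 and 3 in number 7. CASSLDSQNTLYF had 2 and 7 counts in number 8 and 1 in part 1 of number 13. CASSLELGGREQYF had 1 and 4 counts in number 8 and 2 in part 2 of number 3. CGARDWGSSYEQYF was the beta chain of 3 numbers, with 2 counts in number 8, 1 in number 3 and 4 in number 7, and it occurred in 9 of the 10 numbers of the series. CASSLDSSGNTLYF had 2 counts in number 13 and 3 in number 3.

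The public alpha chains were larger and uneven. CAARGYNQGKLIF with TRAV7D-2 had 24 and 6 counts in number 8, 2 and 3 in number 13, 0 and 24 in number 3 and 0 in number 7. Its 24 counts in part 2 of number 3 beside 0 in part 1 show how far parts of 1 number could differ. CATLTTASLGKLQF had 20 and 22 counts in number 13, 5 in number 7 and 0 in numbers 8 and 3. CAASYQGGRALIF had 7 counts in part 1 of number 8 and 7 in part 2 of number 13, and was not seen in the untreated samples.

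Numbers 13 and 3 also had ovary metastases in the series, and these held many of the same clones. Of 473 TRB clonotypes in the brain of number 13, 156 (33.0%), carrying 47.4% of its TRB counts, were found in its own ovary samples. Of 264 in untreated number 3, 99 (37.5%), carrying 46.5% of counts, were found in its own ovary. Ovaries of other numbers held 2.33% to 4.02% of the clonotypes of number 13 and 1.89% to 3.79% of those of number 3. For numbers 8 and 7, which have no ovary sample here, the ovaries of other numbers held 2.47% to 4.63% and 0.410% to 2.46%. Alpha chains gave the same order, with 181 of 465 clonotypes (38.9%) in number 13 and 100 of 229 (43.7%) in number 3. With 1 number of each treatment sampled in both organs, the treatments could not be tested against each other.

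**Figure D5:**
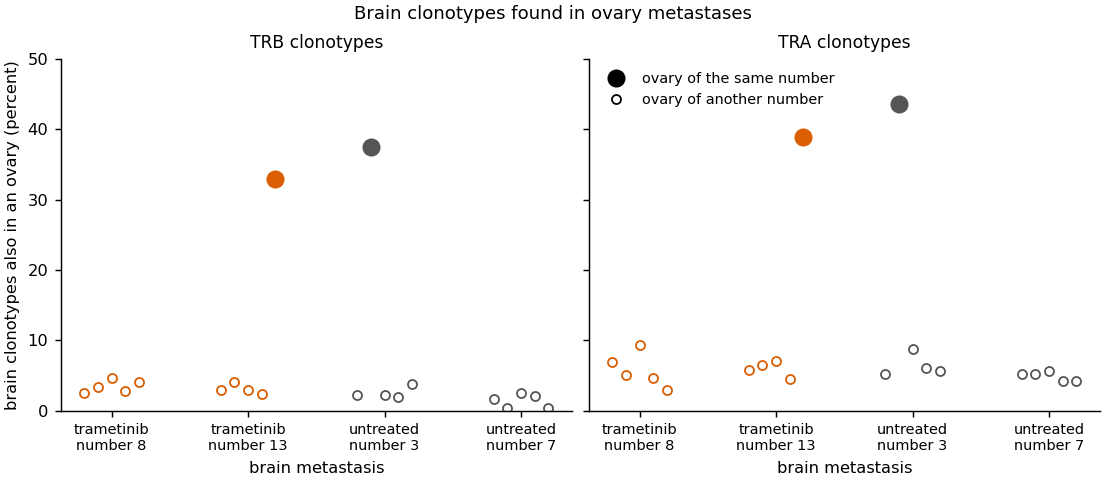
Percent of the clonotypes of each brain number that were also found in an ovary, for beta (left) and alpha chains (right). Large filled points are the ovary of the same number and small open points ovaries of other numbers. For beta chains the own ovary holds 33.0% of number 13 and 37.5% of number 3, and other ovaries hold at most 4.63% of any number.

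The larger brain clones were looked up in the ovary of the same number. In number 13, 39 of 70 TRB clonotypes with 5 or more brain counts and 10 of 10 with 10 or more were in its ovary, and in number 3, 20 of 31 and 3 of 4. The TRBV5 and TRBJ1-4 clonotype of number 13, with 19 and 9 brain counts, had 1262 counts in the ovary samples of that number, and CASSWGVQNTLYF had 371 and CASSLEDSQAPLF 71. In number 3, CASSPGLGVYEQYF had 334 ovary counts and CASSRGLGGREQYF 156, while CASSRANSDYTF, with 10 brain counts in part 1, had 0.

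Mean TRB CDR3 length did not separate the groups. It was 13.74 and 13.95 residues in number 8, 13.62 and 13.88 in number 13, 13.93 and 13.84 in number 3 and 13.68 in number 7. The means were 13.80 ± 0.07 and 13.79 ± 0.14 residues (SD, n = 2 numbers each, exact permutation p = 1, adjusted p = 1). Loops of up to 12 residues took 13.7% to 23.8% of TRB counts with trametinib and 14.7% to 18.8% without, and loops of 16 or more took 6.53% to 12.1% and 6.45% to 11.9%.

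With each part taken as its own sample, 4 against 3, none of the 6 measures passed either (exact permutation p = 0.229 for TRB counts, 0.286 for the invariant alpha chain and 0.629 to 0.971 for the others), and those p-values are too small because parts share clones.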

How the data were processed

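Per the labels' protocols, receptor libraries were made from extracted RNA with a QIAGEN immune repertoire kit. The authors deposited 1 table of raw counts per V segment, J segment and CDR3, not normalized. The labels do not state if these are reads or molecules, and the aligner and clonotype caller were not given in the sources used here. GRCh38, of human, is the build that the submitters' processing notes list, and the samples are from mouse, so positions are not printed. The labels name gamma and delta chains too, which were not analysed here. Of 49519 rows, 176 with a CDR3 outside the 20 standard letters were left out. Joined V names (43 of 123 in these samples, 0 of them TRBV) were kept, and 80 of 80 single V names matched RefSeq GRCm38.p6.

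Parts of a number were averaged, and measures were tested with exact two-sided permutation tests, with Benjamini-Hochberg adjustment over 6 tests. Richness used 302 TRB counts, the lowest total. Segments were tested with edgeR 4.0.16 (quasi-likelihood, counts of parts summed, offset by log chain total, at least 10 counts in at least 2 of 10 brain libraries) in R 4.3.3, with adjustment over all features of a kind at 0.05 and DESeq2 1.42.0 as an alternative. Scripts used Python 3.11.15, numpy 2.4.6, pandas 2.3.3, scipy 1.17.1 and matplotlib 3.10.9. The edgeR test was checked on simulated counts whose spread was set, not taken from these data. The richness, concentration and overlap measures were checked on simulated repertoires, and the permutation tests were not simulated. Named were the 6 V, 6 J and 4 V-J features of lowest p, the 3 most used segments of each kind, fixed lists of invariant chain segments, the 3 largest TRB and 2 largest TRA clonotypes of each number and the 5 leading shared ones. The comparison and the lists were chosen with earlier results of these data known.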

Additional observations from a re-analysis of the deposited data

Results flagged for a closer look

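Of 34 measures and shares checked in the 4 trametinib samples, 1 had a sample far from the other three. The largest TRB clonotype held 4.17% of counts in part 1 of number 8, against 2.76% to 2.83% in the other samples. About 1 in 20 such groups would be picked out by chance.

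For 2 values every brain sample of trametinib lay on 1 side of the untreated samples and every ovary sample on the other, and the difference between the organs was not tested. The summed share of the beta V segments that pair with the invariant natural killer T chain differed by -8.54 percentage points with trametinib in brain (means over samples) and by 7.29 points in the ovary, where it was 30.6% and 34.0% in number 13 and 25.0% and 25.1% in number 3. The TRAJ26 share differed by -3.40 points in brain and by 0.456 in the ovary, where it was 3.11% and 3.37% in number 13 and 2.89% and 2.68% in number 3. The ovary has 1 number of each treatment, and most of the 34 values checked did not overlap there. TRAJ18 with other V segments, TRAV12-3, TRAV19, TRAJ24 and TRAJ38 lay on the same side of the untreated samples in both organs. The ovary samples are of numbers 13 and 3, which are also among the brain numbers, and the organs of a number share clonotypes. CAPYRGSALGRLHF (TRAJ18) was in both organs of number 3 and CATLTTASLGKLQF (TRAJ24) in both of number 13. The same side in the ovary is therefore not independent of the brain values. TRAV21/DV12 and TRBV17 did not overlap in brain but overlapped in the ovary.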

How the results depend on the processing

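No V segment, J segment or V-J pair was called under any of 10 alternatives each (DESeq2, TMM, no filter, the 4 libraries alone, parts as libraries, clonotypes counted once, each number left out), with 2 to 7, 1 to 5 and 9 to 40 at an unadjusted p below 0.05. Of 16 low-p segments and pairs, 0 of 159 alternatives turned the direction. They were picked for low p in the same counts that the alternatives refit, so a kept direction is no support for them. The 4 pairs had 0 counts in all 3 untreated samples and could not turn. Of the 9 measures and counts of calls, the 3 counts stayed at 0 and had no direction to turn. Of 119 alternatives, which include 10 for each of these counts, 29 turned the direction. All were in measures whose adjusted p was 0.8 to 1 throughout, and the cause was not tested. At a depth of 200 counts log2 richness differed by -0.0011. Simpson concentration differed by -0.0023 with parts as samples, -0.014 with parts summed and -0.406 for alpha chains. CDR3 length differed by -0.022 with parts as samples, -0.017 for alpha chains and -0.032 with clonotypes counted once. The log2 TRA to TRB ratio differed by 0.0091 with parts summed and 0.0077 without clonotypes of a single count. With a sample or number left out, differences ran from -0.179 to 0.782 for log2 TRB count, -0.167 to 0.205 for richness, -0.124 to 0.242 for concentration, -5.67 to 2.37 points for the invariant chain, -0.089 to 0.114 residues for length and -0.095 to 0.072 for the ratio, with the ends set by numbers 3 and 7. Leaving out whole numbers, the most common loop alone and clonotype numbers in place of counts were chosen after seeing the data. No paired analysis was possible because the brain groups share no numbers. Depths of 302 to 689 TRB counts limit what small shares can show.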
